A study of Mus musculus with 6 samples.

Results

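The genes of glycolysis described here are Hk1, Hk2, Gpi1, Pfkl, Pfkp, Aldoa, Pgk1, Eno1, Pkm and Ldha, which encode hexokinases and enzymes that carry glucose 6-phosphate on to lactate. They form a named list of 10 among 21203 genes tested, 15180 of them with a gene name. Probes were assigned through the RefSeq accession each one targets, which gave 16 probes for the 10 genes, all of them well above background on all 6 arrays. The list was chosen by what earlier results on these arrays had shown, namely the differences between the genotypes in log2 level, with Hk2 in view, and it asks whether Hk2 moves with the rest of the pathway. Differences between the genotypes in these 10 genes are therefore descriptions, and nothing is read from their number.

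Single-colour Cy3 arrays measured total kidney RNA of newborn mice, 3 with the genotype USP10 KO and 3 with USP10 WT, each mouse on its own array. All are labelled male, and the design text puts collection at about 6 hours of life. The protein made by Usp10 removes ubiquitin from other proteins. The strain, the allele and the removed part of the gene are not given in the sources used here, nor is any treatment. With 3 mice per group the number of arrays limits the precision of each value.

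Glycolysis splits glucose into pyruvate in the cytosol and yields ATP without oxygen. Hexokinases trap glucose in the cell as glucose 6-phosphate, phosphofructokinase commits it to the pathway, pyruvate kinase makes pyruvate, and lactate dehydrogenase turns pyruvate into lactate. Most steps have several isozymes encoded by separate genes. Hk1 is the widely expressed hexokinase, while Hk2 is the inducible form of insulin-responsive tissues such as muscle and fat, and both can bind the outer membrane of mitochondria. In the kidney the proximal tubule is known for making glucose and burning fatty acids, and later nephron segments for using glucose. Many glycolytic genes are targets of hypoxia-inducible factors, whose binding element often has the core ACGTG.

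The promoters of Hk2, Pgk1 and Ldha are shown because all 3 hold the letters ACGTG while their differences between the genotypes, given further on, were positive, negative and near 0. Each is the 250 bases before a start annotated in RefSeq (build GRCm38.p6), written 5′ to 3′ along the gene, with ACGTG and its reverse complement CACGT in capitals.
Hk2, chr6:82774455-82774704, minus strand: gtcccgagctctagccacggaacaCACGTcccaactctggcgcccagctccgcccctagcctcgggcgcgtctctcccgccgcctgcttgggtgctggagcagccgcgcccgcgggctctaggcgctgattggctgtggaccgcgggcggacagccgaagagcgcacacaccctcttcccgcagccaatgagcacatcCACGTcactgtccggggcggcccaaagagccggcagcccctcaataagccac
Pgk1, chrX:106186850-106187099, plus strand: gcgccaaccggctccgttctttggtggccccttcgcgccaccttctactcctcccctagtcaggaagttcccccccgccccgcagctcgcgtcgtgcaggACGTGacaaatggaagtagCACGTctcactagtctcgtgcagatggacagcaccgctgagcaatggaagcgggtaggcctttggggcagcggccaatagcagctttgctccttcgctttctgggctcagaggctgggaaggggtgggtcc
Ldha, chr7:46845554-46845803, plus strand: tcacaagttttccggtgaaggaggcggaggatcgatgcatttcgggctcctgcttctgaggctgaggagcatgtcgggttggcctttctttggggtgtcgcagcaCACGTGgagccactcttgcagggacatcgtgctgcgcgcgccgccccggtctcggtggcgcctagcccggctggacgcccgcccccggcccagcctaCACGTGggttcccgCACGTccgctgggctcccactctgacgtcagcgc
Counting both strands, ACGTG occurs 2 times before Hk2, 2 times before Pgk1 and 5 times before this start of Ldha. There the palindrome CACGTG occurs 2 times, and each palindrome is counted once on each strand, so the 5 matches are not separate sites. All 10 genes matched the promoter table, with 17 starts. ACGTG was found before 6 of them, in Hk2, Aldoa, Pgk1, Pkm and Ldha, and before 16.6% of all 32851 starts in the table. CACGTG was found before 1 of the 17 and before 6.02% of all. A match describes letters in a window and is no evidence of binding. Other forms of the element were not searched, so a gene without ACGTG may still hold one.

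By the scan times in the file headers, 4 arrays were read together (scan 1, holding replicates 1 and 2 of KO and 2 and 3 of WT) and 2 together (scan 2, holding replicate 3 of KO and 1 of WT). The probe for Usp10 went against the labels: its log2 level averaged 3.52 where the label is KO (SD 0.14, n = 3) and 3.03 where it is WT (SD 0.091, n = 3), with a limma adjusted p of 0.414. A probe outside the removed part would check nothing, so each direction below rests on the labels. Y-linked genes were read above background everywhere except WT replicate 2, and Xist only on WT replicates 1 and 2, although every mouse is labelled male. For those of the 10 genes whose difference moves by over 1.5 times without these 2 arrays, the difference against WT replicate 3 alone is given beside it. Ranges below are over 18 alternatives in scaling, background, filter, model or arrays used. As for the tissue, all 18 markers of proximal tubule, later nephron segments, podocytes and nephron progenitors were well above background on every array.

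Hk2 was the gene with the largest difference of the 10. Its level, in log2 units above or below the 75th percentile of the same array as for all levels here, was 0.74, 1.83 and 1.29 on KO replicates 1, 2 and 3 and -0.55, -0.51 and -0.70 on WT replicates 1, 2 and 3. All 3 arrays labelled KO lay above all 3 labelled WT, and they were spread more widely (SD 0.54 against 0.10, n = 3 each). The means differed by 1.87 ± 0.28 (SE) in log2 level, which is 3.66-fold, and 0.127% of all genes had a larger difference. The difference was 1.89 within scan 1, 1.84 within scan 2, 1.99 against WT replicate 3 alone and 1.60 without KO replicate 2, where Hk2 was highest. In whole-kidney RNA, more cells of a type and more RNA per cell cannot be told apart.

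The groups did not overlap for 2 of the 10 genes, Hk2 with KO higher and Pfkl with KO lower, against 18.2% of all genes, 10.2% with KO higher and 7.98% with KO lower. None of the 10 passed an adjusted p of 0.05 in limma, which 0.0802% of all genes did (0.0189% higher and 0.0613% lower in KO). With scan as a block none passed either, and 0.274% of all genes did. Hk2 passed with normexp background correction and percentile scaling and with a trended robust variance, and no other member passed under any alternative run. An unadjusted p under 0.05 was found for Hk2 (higher) and Pgk1 (lower), and for 10.4% of all genes (6.23% higher, 4.16% lower). Since these same differences were known when the genes were chosen, the counts are given without reading anything from them. Hk2 has 1 probe on the array, so no second probe could be set beside it.

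**Figure D1:**
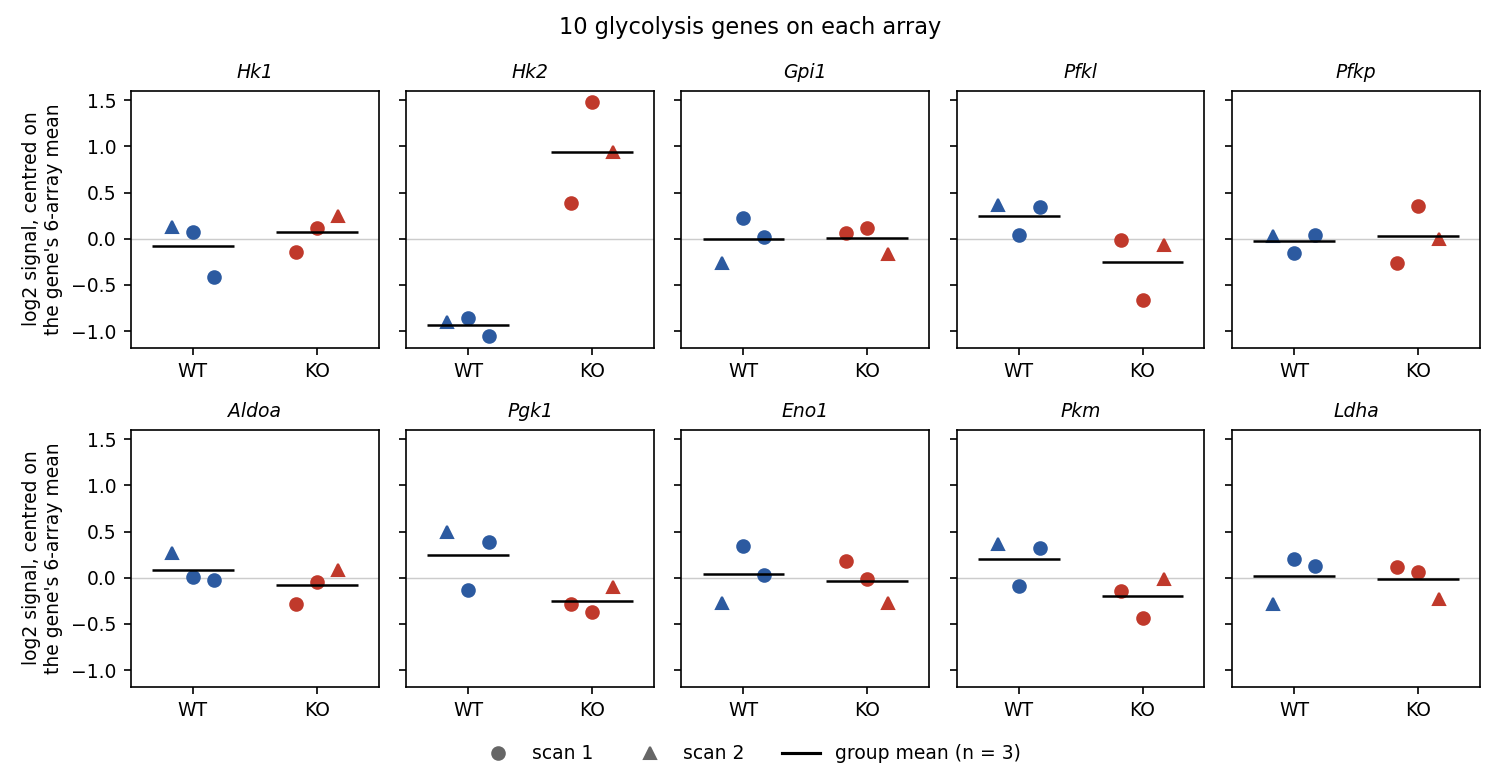
Log2 level of each of the 10 genes on each array, centred on the gene's mean over the 6 arrays, with arrays labelled WT in blue and KO in red, circles for scan 1, triangles for scan 2 and a bar at each group mean (n = 3). Hk2 separates the groups by 1.87, while the differences of the other genes lie between -0.50 and 0.15.

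Hk1, the other hexokinase of the list, did not show this difference. It stood at 3.35, 3.60 and 3.73 on KO replicates 1, 2 and 3 and 3.62, 3.56 and 3.07 on WT replicates 1, 2 and 3. The groups overlapped, WT replicate 3 was lowest, and the difference was 0.15 ± 0.21 (SE). It turned to -0.027 without WT replicate 3 and was 0.49 against that array alone. A dimmer second probe for Hk1 differed with the opposite sign, by -0.32. Outside the list, Hkdc1, a protein with hexokinase domains, differed by -0.31 ± 0.25 (SE) and did not pass (limma adjusted p = 0.653). Its sign turned against WT replicate 3 alone (0.0998), and over the alternatives it ran from -0.51, without WT replicate 3, to that value. Hk3, the hexokinase of white blood cells, was well above background on 0 of 3 arrays labelled KO and 2 of 3 labelled WT and was not tested.

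The steps from glucose 6-phosphate to the trioses showed smaller differences than Hk2. Gpi1, which makes fructose 6-phosphate, stood at 5.27, 5.33 and 5.04 on KO replicates 1, 2 and 3 and 4.94, 5.43 and 5.23 on WT replicates 1, 2 and 3. The groups overlapped, with a difference of 0.011 ± 0.19 (SE), and its other probes differed by -0.013 and 0.11. Its sign was not stable, with -0.14 to 0.13 over the alternatives and -0.018 against WT replicate 3 alone. Pfkl, the liver-type phosphofructokinase, stood at -1.28, -1.93 and -1.33 on KO replicates 1, 2 and 3 and -0.90, -1.23 and -0.92 on WT replicates 1, 2 and 3. Every array labelled KO was lower, although KO replicate 1 and WT replicate 2 lay close together, and the difference was -0.50 ± 0.23 (SE) or -0.29 without KO replicate 2. Pfkp, the platelet-type isozyme, stood at -1.52, -0.91 and -1.26 on KO replicates 1, 2 and 3 and -1.23, -1.41 and -1.22 on WT replicates 1, 2 and 3. Its groups overlapped with a difference of 0.057 ± 0.20 (SE), while a dimmer probe differed by 0.47. The difference of Pfkp turned to -0.10 without KO replicate 2, to -0.0052 without WT replicate 2 and to -0.013 against WT replicate 3 alone. Pfkm, the muscle-type isozyme outside the list, differed by -0.33 ± 0.20 (SE, limma adjusted p = 0.560). Aldoa, the aldolase that splits fructose 1,6-bisphosphate, stood at 3.75, 3.99 and 4.11 on KO replicates 1, 2 and 3 and 4.29, 4.04 and 4.01 on WT replicates 1, 2 and 3. Its groups overlapped, with the highest level on WT replicate 1 and a difference of -0.17 ± 0.18 (SE). It was -0.061 against WT replicate 3 alone, -0.077 without WT replicate 1 and -0.066 without KO replicate 1.

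In the later steps Pgk1 and Pkm lay lower on average where the label is KO, and Eno1 and Ldha were close to 0. Pgk1, the phosphoglycerate kinase on the X chromosome, stood at 3.69, 3.61 and 3.88 on KO replicates 1, 2 and 3 and 4.47, 3.84 and 4.36 on WT replicates 1, 2 and 3. KO replicate 3 lay just above WT replicate 2, so the groups overlapped. The difference was -0.50 ± 0.21 (SE), with -0.45 within scan 1, -0.59 within scan 2 and -0.69 without WT replicate 2. Eno1, an enolase, stood at 4.97, 4.77 and 4.51 on KO replicates 1, 2 and 3 and 4.51, 5.13 and 4.82 on WT replicates 1, 2 and 3. The lowest array of each group was the one read in scan 2, and the groups overlapped, with a difference of -0.072 ± 0.22 (SE) and a range of -0.23 to 0.084 over the alternatives, the highest without WT replicate 2 and the lowest without WT replicate 1. Pkm, the pyruvate kinase of most tissues other than liver, stood at 0.80, 0.50 and 0.93 on KO replicates 1, 2 and 3 and 1.30, 0.85 and 1.27 on WT replicates 1, 2 and 3. WT replicate 2 fell among the arrays labelled KO, and the difference was -0.40 ± 0.20 (SE), with -0.41 within scan 1 and -0.38 within scan 2. Ldha, the main lactate-forming subunit of lactate dehydrogenase, stood at 6.61, 6.56 and 6.27 on KO replicates 1, 2 and 3 and 6.22, 6.70 and 6.63 on WT replicates 1, 2 and 3. Its groups overlapped with a difference of -0.036 ± 0.20 (SE), and its dimmer probes differed by -0.046 and -0.58. Over the alternatives the difference of Ldha ran from -0.30 to 0.070, with -0.19 without WT replicate 1, -0.15 against WT replicate 3 alone and 0.070 without KO replicate 3. Several of these enzymes have pseudogenes or near copies, and whether a probe also reads those was not tested.

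Hk2 did not follow the other 9 genes. With each gene centred on its mean over the 6 arrays, the median of the other 9 was -0.14, -0.014 and -0.069 on KO replicates 1, 2 and 3 and 0.13, 0.040 and 0.042 on WT replicates 1, 2 and 3. That median was below 0 on each array labelled KO and above 0 on each labelled WT, while Hk2 ran the other way. Hk2 minus the median was 0.53, 1.49 and 1.01 on KO replicates 1, 2 and 3 and -1.03, -0.90 and -1.09 on WT replicates 1, 2 and 3, a difference of 2.02 between the group means. Of the other 9 genes, 6 had a negative difference and 3 a positive one, with a median of -0.072, where the median over all genes was 0.031 and 46.3% of all genes were negative. Within scan 1 the median of the 9 was -0.10 and within scan 2 -0.031. It was -0.19 without WT replicate 1, -0.0052 without WT replicate 2 and above 0, at 0.049, without KO replicate 3.

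**Figure D2:**
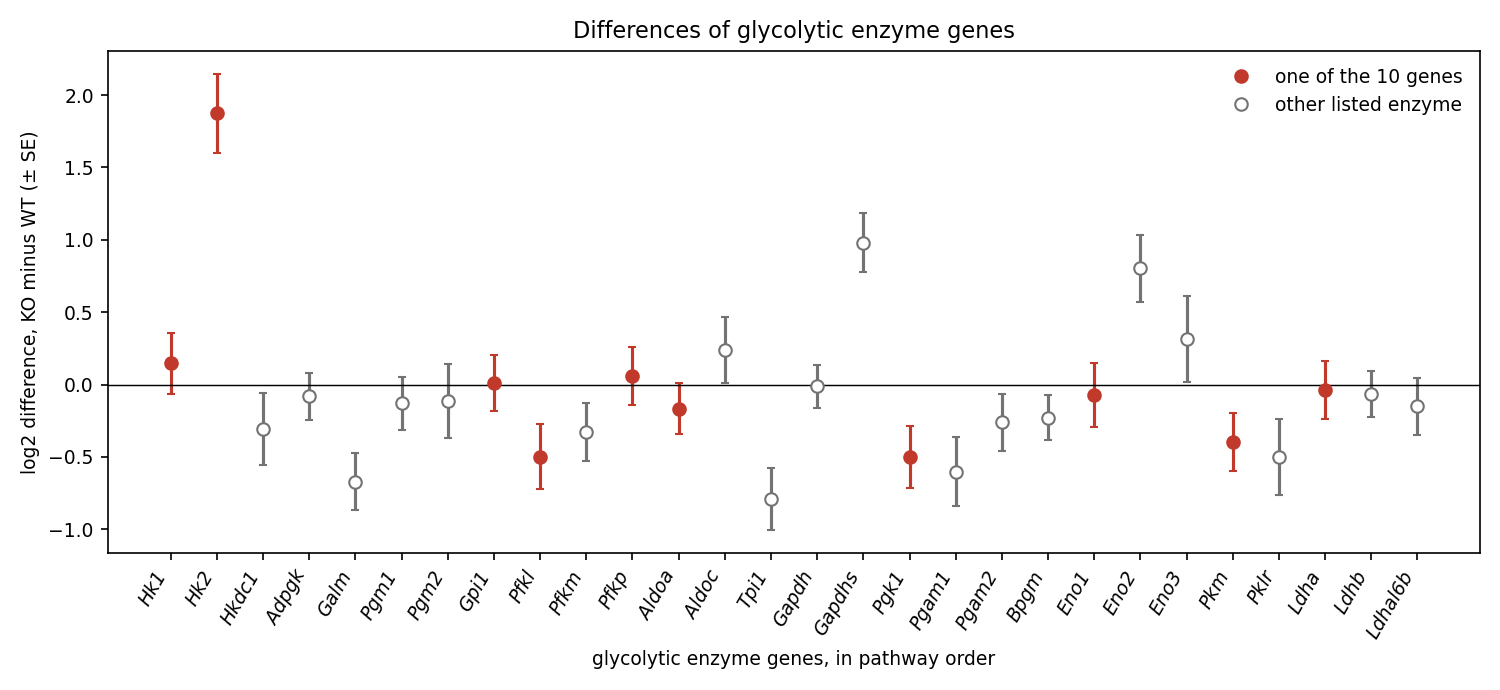
Log2 difference, KO minus WT, with its SE for measured genes of glycolytic enzymes in pathway order, the 10 genes in filled red and other listed enzymes in open grey. Hk2 stands at 1.87, Tpi1 is lowest at -0.79, and Pgk1, Pgam1 and Pkm lie below 0.

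**Figure D3:**
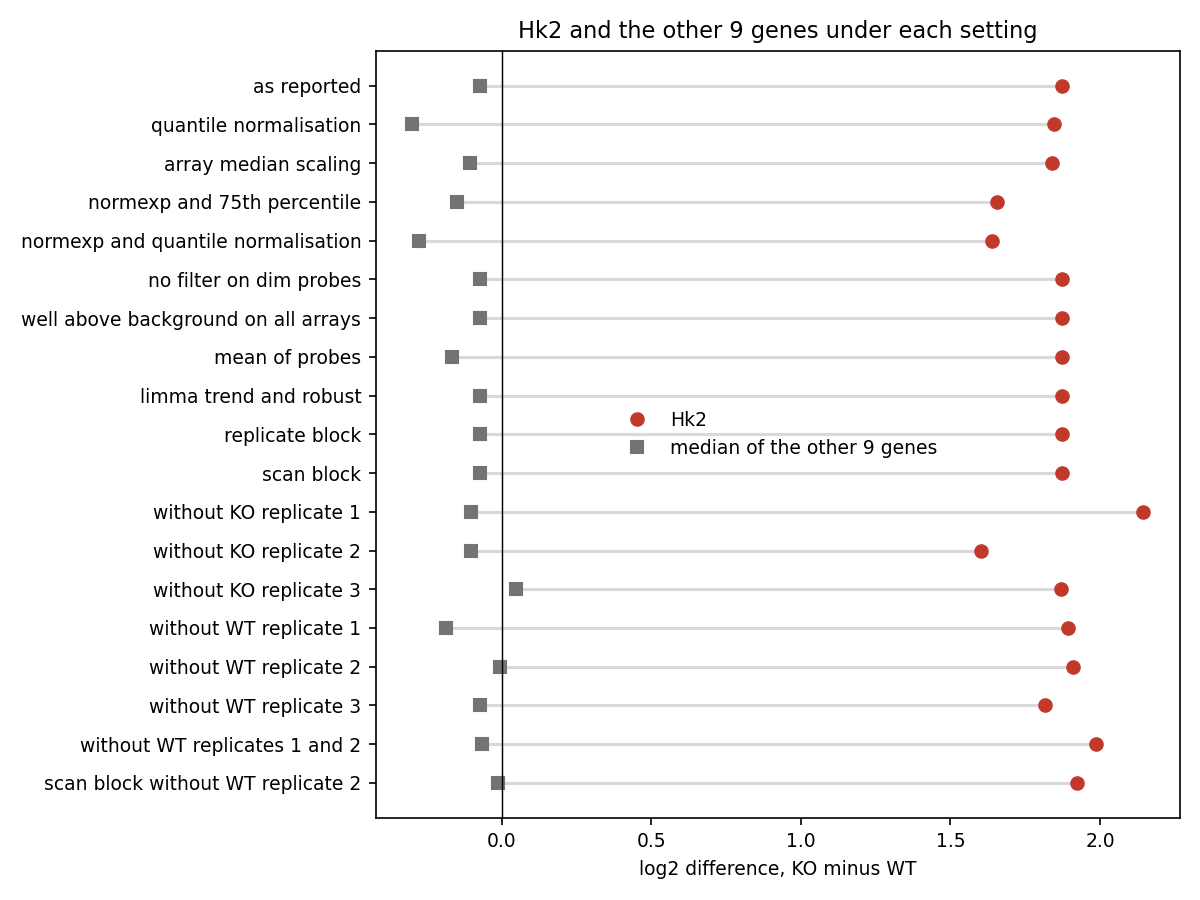
Log2 difference of Hk2 and the median log2 difference of the other 9 genes, as reported and under each of the 18 alternatives. Hk2 runs from 1.60 to 2.14 and the median of the other 9 from -0.30 to 0.049.

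The scan was not used to choose the genes, and it was tested across all genes in a limma fit with genotype and scan. Scan 2 was lower than scan 1 for Gpi1 by a log2 difference of -0.32 ± 0.14, for Eno1 by -0.41 ± 0.16 and for Ldha by -0.38 ± 0.13 (SE). For these 3 genes both arrays of scan 2 lay below all 4 of scan 1, as they did for 19.4% of all genes, and for Hk1 and Aldoa both lay above. Together that is 5 of the 10 genes, against 34.9% of all genes in either direction. None of the 10 passed an adjusted p of 0.05 for scan in limma, as 9.36% of all genes did, and Eno1 and Ldha had an unadjusted p under 0.05, as did 26.7% of all genes. Hk2 differed between the scans by 0.031 ± 0.29 (SE).

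Of 24 other genes for glycolytic enzymes 20 were measured and none passed, with 2 higher and 3 lower at an unadjusted p under 0.05, where 6.23% of all genes were higher and 4.16% lower. Tpi1, the triose phosphate isomerase, stood at 2.84, 2.31 and 2.60 on KO replicates 1, 2 and 3 and 3.37, 3.11 and 3.63 on WT replicates 1, 2 and 3. All arrays labelled KO were lower, with a difference of -0.79 ± 0.21 (SE, limma adjusted p = 0.352). Pgam1, a phosphoglycerate mutase, stood at 5.05, 4.34 and 5.002 on KO replicates 1, 2 and 3 and 5.52, 5.17 and 5.51 on WT replicates 1, 2 and 3. The groups did not overlap, and the difference was -0.60 ± 0.24 (SE, limma adjusted p = 0.464), or -0.37 without KO replicate 2. Galm, the aldose mutarotase, differed by -0.67 ± 0.20 (SE, limma adjusted p = 0.385). Under normexp it was -0.20 with percentile scaling and -0.40 with quantile normalisation. Eno2, the neuronal enolase, differed by 0.80 ± 0.23 (SE, limma adjusted p = 0.375). Gapdhs, the sperm form of glyceraldehyde 3-phosphate dehydrogenase, was not well above background in any WT replicate and was at least 1.86-fold higher in KO, taking the lowest signal called above background on each array as its bound (limma adjusted p = 0.214). It passed the filter only through the KO replicates, so it had to differ, and it is 1 of the 2 counted as higher. The bound holds only for the signal as scaled here. With normexp the log2 difference of Gapdhs was 0.51 under percentile scaling and 0.13 under quantile normalisation. Gapdh, the common form, differed by -0.013 ± 0.15 and Ldhb, the heart-type lactate dehydrogenase subunit, by -0.065 ± 0.16 (SE), both with signs that turned when single arrays were left out. Gapdh was at -0.29 with the mean of its probes and -0.29 with quantile normalisation, where Ldhb was at -0.20. Aldoc, the brain aldolase, differed by 0.24, Eno3, the muscle enolase, by 0.32 and Pklr, the liver pyruvate kinase, by -0.50. None of these 3 passed. Without KO replicate 2 Aldoc differed by 0.042, Eno3 by -0.011 and Pklr by -0.24. The sign of Pklr turned under normexp with percentile scaling (0.20) but not under normexp with quantile normalisation (-0.12). The median over the 20 genes was -0.12, with -0.079 without WT replicate 3 and -0.24 against that array alone.

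Transport of glucose, lactate and pyruvate was measured through 18 of 19 genes, none past the threshold and 1 higher at an unadjusted p under 0.05 (6.23% of all genes). That gene was Slc2a8, an intracellular glucose transporter, at 2.00, 2.68 and 2.50 on KO replicates 1, 2 and 3 and 1.44, 1.53 and 0.98 on WT replicates 1, 2 and 3. The groups did not overlap, with a difference of 1.08 ± 0.24 (SE, limma adjusted p = 0.268). Slc2a1, the basal glucose transporter, stood at 4.68, 5.78 and 5.06 on KO replicates 1, 2 and 3 and 4.20, 4.80 and 4.40 on WT replicates 1, 2 and 3. KO replicate 1 lay below WT replicate 2, the highest array was KO replicate 2 as for Hk2, and the difference was 0.71 ± 0.31 (SE, limma adjusted p = 0.482), or 0.41 without KO replicate 2. Slc2a9, a urate transporter, differed by 1.04 ± 0.47 and Mpc1, a subunit of the mitochondrial pyruvate carrier, by 0.44 ± 0.21 (SE, limma adjusted p = 0.485 and 0.494), or by 1.95 and 0.74 against WT replicate 3 alone and by 0.58 and 0.29 without it. The median of the list was 0.087, but -0.048 without WT replicate 1, and it was under 0.01 without KO replicate 1 or KO replicate 2.

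All 19 regulators of flux and of pyruvate dehydrogenase were measured, none passed, and 5 were higher and 0 lower at an unadjusted p under 0.05, as were 6.23% and 4.16% of all genes. Pfkfb3, which makes the activator of phosphofructokinase, stood at 0.77, 1.28 and 1.00 on KO replicates 1, 2 and 3 and 0.42, 0.56 and 0.28 on WT replicates 1, 2 and 3. Every array labelled KO was higher, with a difference of 0.60 ± 0.19 (SE, limma adjusted p = 0.414). Pdhx, a structural subunit of pyruvate dehydrogenase, differed by 0.50 ± 0.18, and Pdp1, the phosphatase that activates the complex, by 0.48 ± 0.18 (SE, limma adjusted p = 0.444 and 0.45), or for Pdp1 by 0.27 with the mean of its probes. Arrdc4, an arrestin family protein that restrains glucose uptake, differed by 0.67 ± 0.21 (SE, limma adjusted p = 0.414), but its probes disagreed, and with their mean the difference was -6.8e-05. The fifth gene was Pdk4, the kinase that inactivates pyruvate dehydrogenase, named here after its value was seen, with 0.50 ± 0.19 (SE, limma adjusted p = 0.455). The median of the list was 0.20, with 0.049 for the mean of probes, 0.083 without KO replicate 2 and 0.096 without WT replicate 2.

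On the side branches 26 of 27 genes were measured, none passed, and 1 was higher and 4 lower at an unadjusted p under 0.05, against 6.23% and 4.16% of all genes. Gys1, the glycogen synthase of muscle and most tissues, differed by -0.71 ± 0.26 (SE), with -1.26 against WT replicate 3 alone and -0.44 without it. Gbe1, the glycogen branching enzyme, was the gene with KO higher, by 0.48 ± 0.19 (SE), or 0.76 against WT replicate 3 alone. Rpia, an isomerase of the pentose phosphate pathway, differed by -0.43 ± 0.17 (SE), and Phgdh, the first enzyme of serine synthesis, by -0.49 ± 0.19 (SE). Under normexp Rpia was at -0.087 with percentile scaling and -0.27 with quantile normalisation. The fourth lower gene, named after its value was seen, was G6pdx, the first enzyme of the pentose phosphate pathway, with -0.46 ± 0.18 (SE). The limma adjusted p of these 5 genes ran from 0.444 to 0.466.

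Gluconeogenesis was measured through 8 of 9 genes, none past the threshold and 2 higher at an unadjusted p under 0.05, beside 6.23% of all genes. Got1, the cytosolic aspartate aminotransferase, differed by 1.00 ± 0.33 (SE, limma adjusted p = 0.416), or 1.64 against WT replicate 3 alone. Slc37a4, the glucose 6-phosphate transporter of the endoplasmic reticulum, differed by 0.71 ± 0.25 (SE, limma adjusted p = 0.431). Pcx, pyruvate carboxylase, and Fbp2, the muscle fructose bisphosphatase, came next in order of p, with overlapping groups and differences of -0.49 and -0.33. Pcx was at -0.12 without KO replicate 2, and Fbp2 at -0.18 without KO replicate 2, -0.18 without WT replicate 3 and -0.63 against WT replicate 3 alone. Under normexp with percentile scaling Fbp2 was at -0.068.

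All 18 hexokinase anchors and transcriptional regulators were measured and none passed, with 1 higher and 3 lower at an unadjusted p under 0.05 (all genes, 6.23% and 4.16%). Egln3, a hypoxia-inducible prolyl hydroxylase that marks hypoxia-inducible factors for destruction, stood at -1.74, -2.14 and -1.94 on KO replicates 1, 2 and 3 and -0.92, -1.15 and -1.05 on WT replicates 1, 2 and 3. The groups did not overlap, with a difference of -0.90 ± 0.18 (SE, limma adjusted p = 0.181). Under normexp it was -0.59 with percentile scaling and -0.66 with quantile normalisation. Ppargc1a, a coactivator of mitochondrial metabolism, differed by 0.75 ± 0.19 (SE, limma adjusted p = 0.328). Mlx, the partner of glucose-sensing transcription factors, differed by -0.52 ± 0.17 and Myc, a transcription factor of growth, by -0.62 ± 0.22 (SE, limma adjusted p = 0.414 and 0.439), with -0.96 for Myc against WT replicate 3 alone.

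Over these 6 lists 109 of 116 genes were measured, and 0 passed an adjusted p of 0.05 in limma. At an unadjusted p under 0.05, 12 were higher and 10 lower, which is 20.2% of them against 10.4% of all genes. The 12 include Gapdhs, not well above background in WT. The median difference of the 109 was -0.012, with 52 positive and 57 negative. These lists were made with earlier results of these data known, so nothing is read from the counts.

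**Figure D4:**
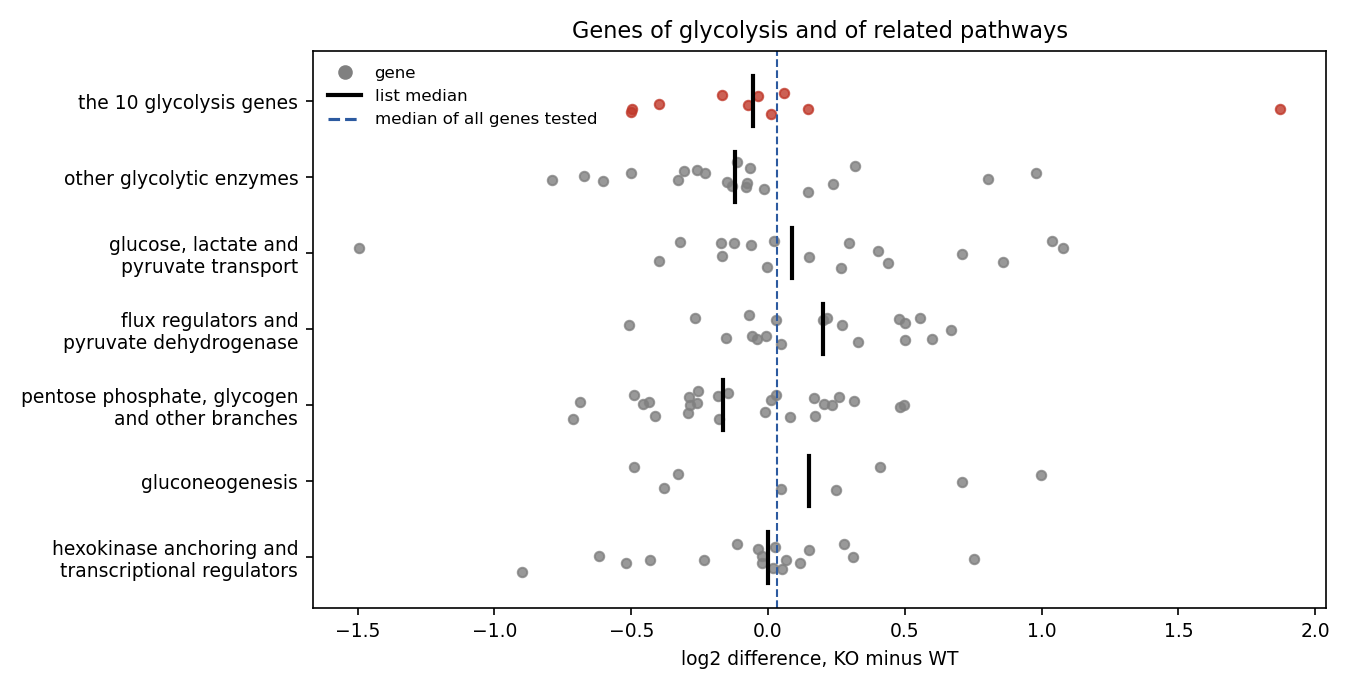
Log2 difference, KO minus WT, of each measured gene (points) on the list of 10 glycolysis genes and on 6 related lists, with each list's median (black bar) and the median of all genes tested (dashed line, 0.031). The medians of the related lists lie between -0.16 and 0.20, and Hk2 at 1.87 is the highest point.

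The genes nearest to Hk2 in pattern were found by the root mean square difference between centred log2 levels over the 6 arrays, among 2262 named genes with a comparable range. They were Folh1, a folate hydrolase (0.183), Ripor2 (0.191), Cebpd, a transcription factor of acute responses (0.194), Hsd3b1, a steroid dehydrogenase (0.195), and Fyb2, an adaptor protein (0.204). Ripor2 was well above background on 3 KO and 2 WT replicates, so it passed the filter only through KO. Cebpd stood at 3.83, 4.26 and 3.93 on KO replicates 1, 2 and 3 and 2.21, 2.23 and 2.09 on WT replicates 1, 2 and 3. As in Hk2, KO replicate 2 was highest and KO replicate 1 the lowest of the KO replicates in all 5 genes. Their likeness to Hk2 follows from how they were picked.

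**Figure D5:**
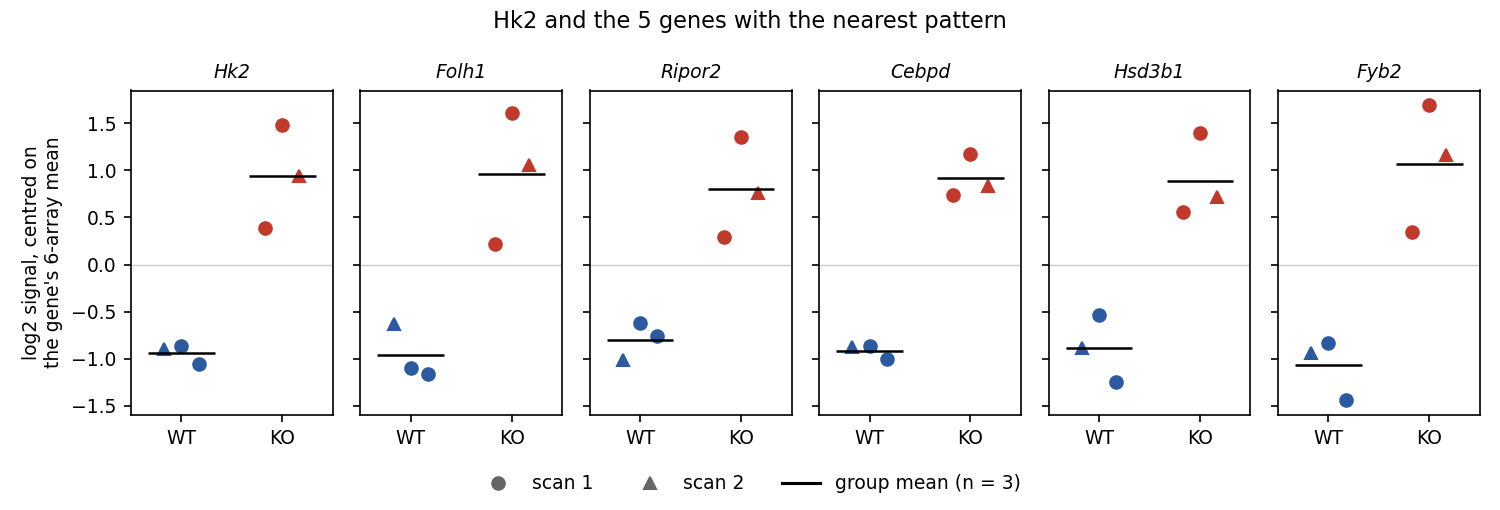
Log2 level on each array, centred on the gene's mean over the 6 arrays, of Hk2 and the 5 genes with the nearest pattern, with arrays labelled WT in blue and KO in red, circles for scan 1, triangles for scan 2 and a bar at each group mean (n = 3). KO replicate 2 is the highest point in each panel.

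Markers of other tissues known for Hk2 were set beside it as the summed linear level of each marker list, relative to the 75th percentile. Of 5 brown fat markers 1 was well above background on all 6 arrays and Ucp1, the defining one, on none, and the sum was 1.03 to 1.33 for KO and 1.08 to 1.37 for WT. Cox7a1, the brightest of them, made up most of this sum. Of 10 skeletal muscle markers 4 were above background on all arrays and Ckm, Myh1, Mylpf and Myog on none, and the sum was 0.577 to 0.950 for KO and 0.713 to 1.13 for WT. Acta1 and Tnni2, the brightest of them, made up most of this sum. Of 5 white fat markers 4 (Adipoq, Plin1, Lep and Cfd) were above background on no array, and the sum was 0.0271 to 0.0682 for KO and 0.0258 to 0.0458 for WT. Each of these sums overlapped between the groups. In the white fat sum KO replicates 2 and 3 (0.0624 and 0.0682) lay above every WT replicate. The fifth marker of that list, Cidec, was above background on 1 array, labelled KO. On every array that sum thus holds signal not called above background, and nothing is read from it. Among brown fat markers Cidea was lower in every KO replicate, but it was well above background on 3 WT and 2 KO replicates. It passed the filter only through WT, so nothing is read from its difference. Cox7a1 overlapped with a difference of -0.094. The part of these tissues in the difference of Hk2 was not tested.

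Within the kidney, KO replicate 2, where Hk2 was highest and Pfkl and Pkm lowest, had the lowest sum of the 4 podocyte markers, 4.56 against 11.5 to 18.1 on the other 5 arrays. It also had the lowest sum of the 5 proximal tubule markers, 38.4 against 54.4 to 64.9. Sums for later segments were 14.0 to 21.2 for KO and 16.3 to 19.3 for WT, and for nephron progenitors 9.94 to 15.5 and 10.7 to 15.4. That last sum holds markers that went different ways. Cited1 and Meox1 were lower in every KO replicate, as were 7.98% of all genes (differences -0.68 ± 0.20 and -0.63 ± 0.24, SE, limma adjusted p = 0.385 and 0.455). Six2 differed by -0.66 and Eya1 by 0.69. Macrophage markers, 6 of 7 with a probe and all 6 above background, summed to 4.997 to 5.29 for KO and 5.63 to 6.64 for WT, without overlap. This sum too holds markers that differed among themselves. Cx3cr1, C1qa and C1qc were lower in every KO replicate, as were 7.98% of all genes (differences -1.58, -0.77 and -0.87, limma adjusted p = 0.0608, 0.355 and 0.355). Csf1r, the brightest of the 6, overlapped with a difference of -0.11 ± 0.17 (SE), as did Adgre1 with -0.64 and C1qb with 0.022. Sums overlapped for adrenal (0.515 to 0.731 and 0.497 to 0.703), erythroid (1.5 to 2.74 and 1.71 to 2.28), neutrophil (3.71 to 5.76 and 4.73 to 5.87) and lymphocyte markers (0.687 to 0.895 and 0.753 to 0.959). All 5 neutrophil markers tested had a negative difference (median -0.38), as did 46.3% of all genes, and none passed. S100a8 and Camp were lower in every KO replicate, as were 7.98% of all genes. The 3 lymphocyte markers tested were negative too (median -0.15), with Cd79b lower in every KO replicate, and none passed. Nothing is read from these counts. The part of macrophages, neutrophils, lymphocytes, nephron progenitors and kidney regions in the differences of the 10 genes was not tested.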

How the data were processed

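Each of 6 newborn kidneys was hybridised to its own single-colour Agilent array. Per the file headers, the deposited intensity of a spot is linear with background already subtracted, and no scaling across arrays was found. The headers name Feature Extraction 11.0.1.1 and mm9 as the build of the array design, and the submitters' processing notes name 9.1. Of 44397 spots, 1377 controls and all flagged outlier spots were dropped. Levels are log2 intensity minus the 75th percentile of the array, averaged over a probe's spots. Names came from accessions, which linked 27234 of 39429 probes to RefSeq genes (GRCm38.p6, used for names and promoters only). Probes were kept when well above background throughout either group, and a gene is read by its brightest probe. Two-sided tests came from limma 3.58.1 under R 4.3.3, by lmFit then eBayes, with Benjamini-Hochberg adjustment across 21203 genes and a threshold of 0.05, and were tried first on simulated data. Per array 64.4% to 73.9% of spots were well above background and 0 were saturated.

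The members and the lists were chosen with earlier results of these data known. Named are the 10 members, isozymes of their steps, Slc2a1, Gapdh, Tpi1, Pgam1 and Usp10, up to 4 genes per related list by smallest p, and the 5 genes nearest to Hk2 among those spanning at least 0.5 times its range. Some isozymes the rule allows are not reported here. Alternatives were quantile or median scaling, normexp on median signals (offset 50) before either percentile or quantile scaling, other filters, the mean of probes, a trended robust variance, replicate and scan blocks, and leaving out each array. WT replicate 3 alone, the scan block without WT replicate 2 and the scan contrast were added after the data were seen.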

Additional observations from a re-analysis of the deposited data

How the results depend on the processing

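Across the 18 alternatives the difference of Hk2 stayed positive, from 1.60 to 2.14, and those of Pfkl, Aldoa, Pgk1 and Pkm stayed negative, while Hk1, Gpi1, Pfkp, Eno1 and Ldha changed sign in at least 1. Hk2 minus the median of the other genes ranged from 1.83 to 2.24. Members past the threshold numbered 0 as reported and 1, Hk2, under normexp with percentile scaling and, again 1, under a trended robust variance. The median of the 10 genes, -0.054 as reported, was -0.25 under quantile normalisation, -0.13 under normexp with percentile scaling, -0.24 under normexp with quantile normalisation, -0.13 for the mean of probes and -0.00753 with the scan block without WT replicate 2. Leaving out single arrays moved it between -0.15 and 0.055, above 0 without KO replicate 3 (0.055) or WT replicate 2 (0.025). The cause was not tested. The median of all genes itself moved from 0.031 to 0.14 under normexp with percentile scaling. Genes past the threshold in limma numbered 17 over all genes, 58 with the scan block, 45 with a trended robust variance, 1 with the stricter filter and 1 for the mean of probes. There were 0 under normexp with quantile normalisation (2206 at an unadjusted p under 0.05), 0 without a filter (2050), 0 against WT replicate 3 alone (2019) and 0 with the scan block without WT replicate 2 (5138). Leaving out single arrays gave from 0 to 30, with 30 without KO replicate 3 and 0 without any other array. Members at an unadjusted p under 0.05, 2 as reported, numbered 1 to 3. List medians moved by over 1.5 times in several settings, for gluconeogenesis from 0.15 to between 0.028 and 0.25 and for the side branches from -0.16 to between -0.23 and -0.024. No gene of the related lists passed under any alternative. The replicate block gave 0 genes (1610 at an unadjusted p under 0.05) and no member, but same-numbered arrays deviated with correlations across genes of -0.40, 0.48 and -0.60, so the numbers were not taken as pairs. Precision is limited by 3 arrays per group and by the single probe for Hk2.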
